A study of Rattus norvegicus with 18 samples.

Results

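The regulators of G-protein signalling (RGS) examined here were 8 genes, Rgs2, Rgs3, Rgs4, Rgs5, Rgs10, Rgs14, Rgs16 and Rgs19, of the 14217 genes named on the array. They were taken by symbol from the annotation of the array, which gave 12 probe sets of 31042. A probe set is a group of short probes against one transcript, and each was kept apart because signals of different probe sets cannot be compared as levels. Of the 12 probe sets, 7 reached a signal of 400 on at least 1 array and were tested, and the other 5 lay below it on every array.

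RNA was measured on 18 arrays, 3 for each combination of muscle and treatment, in female Lewis rats that were 6 to 8 weeks old at the start and were dissected after 6 weeks. Rats with experimental autoimmune myasthenia gravis (EAMG), labelled exp, had been immunized with 40 μg of acetylcholine receptor of the electric ray Torpedo in complete Freund's adjuvant with 0.5 mg of added killed mycobacterium. Control rats, labelled ctrl, received that adjuvant without the receptor, so both treatments share it. The muscles were the diaphragm (DIA), the fast extensor digitorum longus of the hind limb (EDL) and the rectus muscles of the eye (EOM). Each array held a pool of several rats, given as 3 in the series description and as 4, or 4 to 5, in the methods, and p-values measure the spread between pools.

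G proteins relay signals from receptors that span the cell membrane. A receptor that has bound its ligand makes the alpha subunit of the G protein exchange GDP for GTP, and the alpha subunit and the beta-gamma pair then act on enzymes and channels. RGS proteins bind the GTP form of the alpha subunit and speed the hydrolysis of GTP, which ends the signal, and they differ in the alpha subunits they act on, in their other domains and in the cells that make them. In skeletal muscle the transcripts can come from fibres, vessels, nerve and resident immune cells, and in whole-muscle RNA fewer cells of a type and less RNA per cell cannot be told apart.

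Median signal lay between 129 and 163 on the 18 arrays, and 27.9 to 31.1% of probe sets reached 400. Added poly-A control transcripts averaged 641 on DIA EAMG array 2 and 452 on EOM EAMG array 2, against 8891 to 21471 on the other 16 arrays. The GAPDH signal at the 3' end over that at the 5' end, a sign of RNA integrity, was 2.66 on DIA EAMG array 3 and 1.06 to 1.33 on the other 17. All 8 defining skeletal muscle markers were tested and none passed between EAMG and control in any muscle. Their summed signal spread more widely in EAMG EOM, at 139148 to 229525, than in control EOM, at 179624 to 193677. Myh13, the extraocular myosin, averaged 25563 in control EOM, against 301 in control EDL and 19.1 in control DIA. Summed signals of markers of other orbital tissues did not overlap between EAMG and control in EOM, with EAMG above. The summed signal of 8 surface epithelium markers was 4344 to 14032 in EAMG EOM and 1240 to 2551 in control EOM, that of 8 markers of orbital lipid gland 11859 to 12415 in EAMG EOM and 6509 to 7702 in control EOM, and 1 melanocyte gene, Dct, read 223 to 913 in EAMG EOM and 48.8 to 113 in control EOM. Rbp7 of the epithelial list (2.95 ± 0.36; limma, adjusted p = 0.00078), Thrsp of the gland list (3.15 ± 0.57; limma, adjusted p = 0.0111) and Dct (2.67 ± 0.61; limma, adjusted p = 0.0422) passed in EOM, and the other 14 tested genes of these lists did not. Dct reached 400 only in EAMG EOM. These values stand beside every EAMG change in EOM given below, and their part in those changes was not tested.

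Rgs2, which acts mainly on alpha subunits of the Gq class and is known in rodents for restraining vascular contraction, was lower in EAMG in EOM and in EDL on its brighter probe set only, and its DIA difference did not pass. Between control muscles its signal was highest in EOM on both of its probe sets, and in EOM against EDL and EOM against DIA both differed more than any other tested RGS probe set. The promoters of Rgs2 and of Rgs4 and Rgs5, the genes with a probe set whose average over the muscles changed in EAMG, are shown because these results turn on them. The sequences are from RefSeq on the rat assembly GRCr8, run from 250 bases before to 50 bases after the start of the gene, and are written 5′ to 3′ on the strand of the gene. Rgs2 lies at chr13:58352617-58352916 on the minus strand, Rgs4 at chr13:84475835-84476134 on the minus strand and Rgs5 at chr13:84380827-84381126 on the plus strand. Capitals mark matches on either strand to the TATA box (letters TATAAA), the CCAAT box (letters CCAAT), the half-site of the cAMP response element or CRE (letters TGACG) and the GC box (letters GGGCGG).
Rgs2: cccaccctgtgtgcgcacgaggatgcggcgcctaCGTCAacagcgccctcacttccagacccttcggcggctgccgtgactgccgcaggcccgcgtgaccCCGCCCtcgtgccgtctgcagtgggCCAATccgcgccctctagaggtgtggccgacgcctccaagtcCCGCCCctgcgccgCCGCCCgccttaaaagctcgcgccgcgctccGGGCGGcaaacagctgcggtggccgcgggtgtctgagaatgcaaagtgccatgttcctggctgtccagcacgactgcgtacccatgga
Rgs4: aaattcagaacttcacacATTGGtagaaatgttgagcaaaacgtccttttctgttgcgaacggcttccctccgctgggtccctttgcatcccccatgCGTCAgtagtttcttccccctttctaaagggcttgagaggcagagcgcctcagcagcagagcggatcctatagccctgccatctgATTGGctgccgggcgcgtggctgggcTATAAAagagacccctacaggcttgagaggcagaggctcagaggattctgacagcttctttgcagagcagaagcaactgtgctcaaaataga
Rgs5: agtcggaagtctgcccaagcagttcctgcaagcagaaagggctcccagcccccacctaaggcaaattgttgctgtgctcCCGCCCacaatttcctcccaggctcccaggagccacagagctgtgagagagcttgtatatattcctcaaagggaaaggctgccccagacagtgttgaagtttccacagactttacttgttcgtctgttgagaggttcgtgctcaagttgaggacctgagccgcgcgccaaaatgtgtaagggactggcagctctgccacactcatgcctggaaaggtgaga

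The Rgs2 window is rich in GC, at 69.7% with 35 CpG dinucleotides, against medians of 51.7% and 7 over 33469 promoters of the same length. It holds 4 GC boxes, 1 CCAAT box and 1 CRE half-site, and no match to the TATA box. The Rgs4 window holds a TATA box 42 bases before the start, with 2 CCAAT boxes and 1 CRE half-site, at 52.7% GC, and the Rgs5 window holds a single GC box at 54.3% GC. Over all promoters 14.2% held the TATA box letters, 37.5% those of the CCAAT box, 21.2% the CRE half-site and 33.1% the GC box, and none of the marked matches overlap. A further search on both strands for AGAACA, the half-site of the glucocorticoid receptor element, matched 20.7% of all promoters and none of these 3 windows. Of the 8 genes, 4 lie on chromosome 13, the other one being Rgs16. Rgs5 and Rgs4 face each other there with no annotated gene between them in the RefSeq table.

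On the brighter Rgs2 probe set (1387074_at) the EOM signals were 1439.9, 1459.6 and 1354 in EAMG, against 2688, 2743 and 2518 in control. All 3 EAMG arrays lay below all 3 control arrays, and the spread within each group was small beside the gap. The log2 difference was -0.90 ± 0.15 (SE), a level 1.87-fold lower in EAMG (adjusted p = 0.0083, limma, adjusted over the 12238 probe sets tested). In EDL the signals were 531, 461 and 529 in EAMG, against 905, 693 and 834 in control. The groups did not overlap there either, and the difference was -0.67 ± 0.15, or 1.59-fold lower in EAMG (limma, adjusted p = 0.0212). In DIA the signals were 1128, 1412 and 1808 in EAMG, against 987, 1243 and 1069 in control. These groups overlapped, with the highest EAMG value on the array with the raised GAPDH ratio, and the difference of 0.38 ± 0.15 did not pass (limma, adjusted p = 0.184). Without that array it was 0.21 (limma, adjusted p = 0.494). The authors also measured Rgs2 by quantitative PCR on the samples of the arrays. They reported it lower in EAMG in EOM, unchanged in EDL and higher in DIA. The EDL fall given here was therefore not seen by that method. The array folds they list beside it were lower in EOM and EDL and slightly higher in DIA, each by less than on 1387074_at. Their text, by contrast, names Rgs2 among transcripts that the arrays showed increased in EOM alone.

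The EOM change of Rgs2 minus its DIA change was -1.28 ± 0.22 on the log2 scale, with a 95% interval of -1.74 to -0.82, and missed the threshold once adjusted over all probe sets (limma, adjusted p = 0.0857). Only 0.0163% of the probe sets passed for this difference. The EDL change minus the DIA change was -1.05 ± 0.22 (limma, adjusted p = 0.333), where 0.0163% passed. The EOM change minus the EDL change was -0.23, with an interval of -0.69 to 0.23 (limma, adjusted p = 0.772), where 0.106% passed. A difference between muscles in the Rgs2 response was therefore not called in any of the 3 pairs.

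The second Rgs2 probe set (1368144_at) gave changes of the same sign in each muscle, but none passed. Its EOM signals were 508, 747 and 538 in EAMG, against 689, 1358 and 923 in control, and the groups overlapped by 1 EAMG array. The difference was -0.69 ± 0.29 in EOM (limma, adjusted p = 0.302). In EDL it was -0.28 ± 0.29 and in DIA 0.26 ± 0.29, with overlapping arrays in both. Across the 18 arrays the log2 signals of the 2 probe sets had r = 0.89, and once the group means were taken away r = -0.15, so they shared the differences between groups and not the spread within them.

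Rgs4, which acts on Gi and Gq alpha subunits and is best known from brain and heart, was lower in EAMG in EOM, in EDL and on average over the muscles, and its DIA difference was of similar size but did not pass. In EOM the probe set 1368505_at read 647, 787 and 535 in EAMG, against 1106, 911 and 1094 in control. In EDL it read 670.0, 505 and 515 in EAMG, against 789, 789.9 and 889 in control. In DIA it read 603, 563 and 558 in EAMG, against 767, 1006 and 797 in control. In each muscle every EAMG array lay below every control array.

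The Rgs4 difference was -0.67 ± 0.16 in EOM (limma, adjusted p = 0.0446) and -0.56 ± 0.16 in EDL (limma, adjusted p = 0.0453), and both passed narrowly. With the replicate number of the labels as a block the EOM call was lost (limma, adjusted p = 0.0549) and the EDL call kept (limma, adjusted p = 0.0495). In DIA the difference was -0.57 ± 0.16 and did not pass (limma, adjusted p = 0.0639). The interval of the EOM change minus the DIA change ran from -0.57 to 0.36. Averaged over the 3 muscles the change was -0.60 ± 0.09, or 1.51-fold lower in EAMG (limma, adjusted p = 0.000524). With each array left out in turn the EOM call was lost in 13 of 18 fits and the EDL call in 14 of 18, up to an adjusted p of 0.178 in EOM without control array 3 and 0.156 in EDL without EAMG array 3, while the average passed without any one array. Whether same-numbered arrays of different muscles came from the same rats is not given in the sources used here, and the average treats all 18 arrays as independent. Deviations of same-numbered arrays of different muscles had r from -0.20 (EAMG EDL and EOM) to 0.47 (EAMG DIA and EOM).

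A second Rgs4 probe set (1368506_at) stayed below 400 on every array and was not tested. Its EDL signals of 193, 188 and 223 in EAMG lay below the 319.6, 268 and 233 of control. In DIA and EOM its arrays overlapped, and DIA EAMG array 3, the one with the raised GAPDH ratio, read 19.6 beside 205 and 203 on the other two. The log2 signals of the 2 Rgs4 probe sets had r = 0.42 across the 18 arrays.

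Rgs5, which acts on Gi and Gq alpha subunits and marks pericytes, the mural cells of small vessels, was lower in EAMG on average over the 3 muscles. In EOM its probe set (1369957_at) read 690.0, 1382 and 817 in EAMG, against 1341, 1472 and 1431 in control. EAMG array 2 stood at the control level and the other two well below it. In EDL it read 923, 592 and 919 in EAMG, against 1164, 989 and 1376 in control, with no overlap. In DIA it read 1046, 751 and 731 in EAMG, against 1131, 1026 and 1122 in control, and 1 EAMG array lay within the control values. The differences were -0.62 ± 0.23 in EOM, -0.55 ± 0.23 in EDL and -0.39 ± 0.23 in DIA, and none passed alone, although with array weights the EOM difference did (-0.72; limma, adjusted p = 0.0393). Their average was -0.52 ± 0.14, or 1.44-fold lower in EAMG (limma, adjusted p = 0.0147). With DIA EAMG array 2 and EOM EAMG array 2, the arrays with low poly-A signal, left out, the average was -0.60 (limma, adjusted p = 0.00669) and the EOM difference -0.91 (limma, adjusted p = 0.0608).

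**Figure D1:**
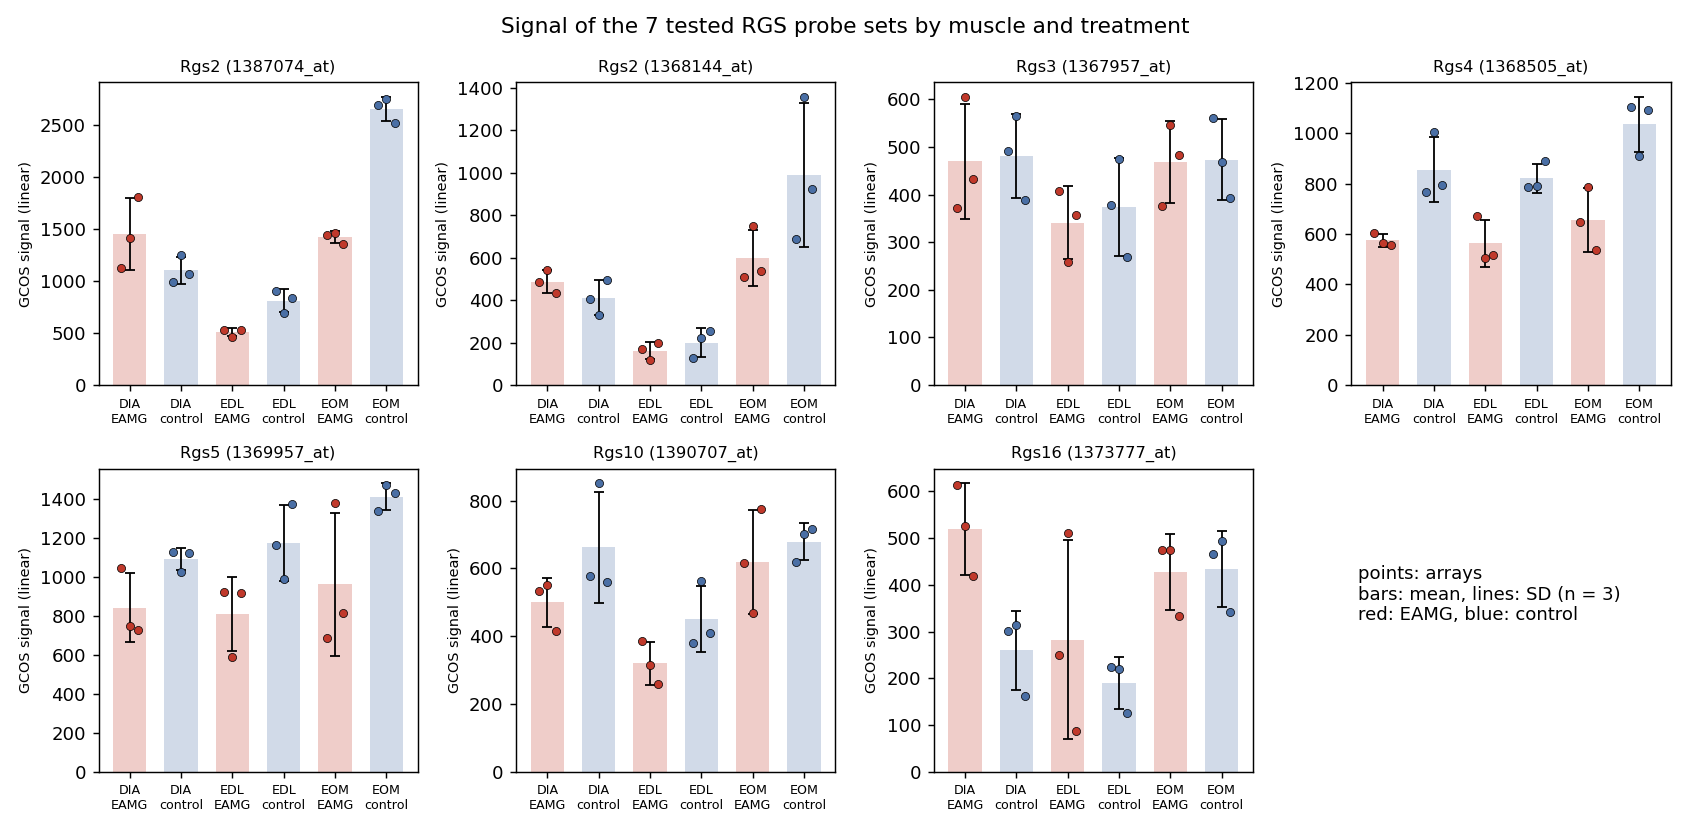
Signal of each tested RGS probe set on the linear scale of the deposited values (y axis) by muscle and treatment (x axis), EAMG in red and control in blue. Points are arrays, bars are means and lines are SD (n = 3). All 3 EAMG points of Rgs4 (1368505_at) lie below all control points in each muscle, and Rgs2 (1387074_at) in control EOM, at 2518 to 2743, stands above every other group.

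Levels of Rgs4 and Rgs5 had r = 0.81 across the 18 arrays and r = 0.49 within groups, which is a description over arrays that share groups and chips. Because Rgs5 is made by mural cells, markers of pericytes and vascular smooth muscle were set beside it. Of 17 markers 13 were tested. Ndufa4l2, made by pericytes, was lower in EAMG in EOM (-0.96 ± 0.19), DIA (-0.93) and EDL (-0.82), and smoothelin, Smtn, was lower in DIA (-0.69) and EDL (-0.65). Ndufa4l2 reached 400 only in control EOM and control EDL, so it met the signal minimum only through control arrays, against which it was called lower. Its DIA arrays all lay below 400, at 151 to 252 in EAMG and 358 to 381 in control. No other marker of the list passed in a single muscle. On average over the muscles, the comparison in which Rgs5 passed, 9.93% of all probe sets were lower. Of the 13 markers 3 were lower and none higher. They were Ndufa4l2 (-0.90 ± 0.11; limma, adjusted p = 0.000115), Smtn (-0.59 ± 0.08; limma, adjusted p = 0.000263) and Kcnj8, a potassium channel subunit of pericytes (-0.51 ± 0.10; limma, adjusted p = 0.00353). The contractile smooth muscle genes Acta2 and Myh11 averaged changes of 0.0030 and 0.03, and the median over the 13 was -0.11. The summed signal of the 13 markers ran from 24561 to 29112 in EAMG EOM, against 27163 to 30163 in control. In EDL it ran from 35337 to 39546 in EAMG, against 39220 to 43048 in control, and in DIA from 27822 to 35142 in EAMG, against 32317 to 35549 in control. The ranges overlapped in every muscle, each of the 13 reached 400 on at least 1 array, and the part of vessel content in the Rgs4 and Rgs5 changes was not tested. Of 12 endothelial markers tested, Cldn5, of tight junctions, was higher in DIA (0.66) and EDL (0.75) and Emcn was lower in EDL (-0.66), and none passed in EOM. On average over the muscles 2 of the 12 were higher, Cldn5 (0.64; limma, adjusted p = 0.000427) and Flt1 (0.34; limma, adjusted p = 0.0268). Emcn alone was lower there (-0.49; limma, adjusted p = 0.00122).

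Rgs10, which acts on Gi alpha subunits and is abundant in immune cells, did not pass in any EAMG comparison. In DIA its probe set (1390707_at) read 533, 550.4 and 416 in EAMG, against 577, 851 and 560.2 in control, and the groups were just apart. The differences were -0.39 ± 0.22 in DIA, -0.49 ± 0.22 in EDL and -0.16 ± 0.22 in EOM, and their average was -0.35 ± 0.13 (limma, adjusted p = 0.0643). In EDL and EOM the arrays overlapped.

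Rgs16, which acts on Gi and Gq alpha subunits and is induced by immune stimuli in several cell types, stood out in DIA by its values but not by the test. Its DIA signals (1373777_at) were 613, 525 and 419 in EAMG, against 301, 314 and 163 in control. Every EAMG array was above every control array, and the difference was 1.04 ± 0.46, or 2.06-fold higher in EAMG, with a 95% interval of 0.06 to 2.03 (limma, adjusted p = 0.225). Every DIA control array lay below 400, so this ratio rests on a dim signal. Summed signal of 13 macrophage markers was also apart in DIA, at 13409 to 18066 in EAMG and 8887 to 12784 in control, with none of the 13 passing singly, and its part in the Rgs16 values was not tested. In EDL the signals were 249, 510.0 and 88.2 in EAMG, against 225, 219 and 126 in control, so that the EAMG arrays held both the highest and the lowest value. In EOM the signals were 475, 474 and 332 in EAMG and 467, 493 and 342 in control, a difference of -0.02 ± 0.46.

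Rgs3, which acts on Gi and Gq alpha subunits and binds the beta-gamma pair, showed no difference that the arrays could resolve. Its tested probe set (1367957_at) ranged from 259 to 606 over the EAMG arrays and from 268 to 565 over the control arrays, and the arrays overlapped in all 3 muscles. The average change was -0.06, with an interval of -0.37 to 0.24. Both other Rgs3 probe sets lay below 400, at 188 to 288 in EAMG and 176 to 365 in control (1374528_at), and at 92.9 to 156 in EAMG and 98.7 to 229.7 in control (1376803_at). In the last of these the EOM arrays were apart, at 92.9, 114 and 117 in EAMG and 218, 143 and 142 in control.

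Rgs14, a Gi regulator that also binds inactive alpha subunits and small GTPases, and Rgs19, a Gi regulator first described as an interacting protein of a G alpha subunit, were dim. Rgs14 (1369045_at) read 14.8 to 105 in EAMG and 12 to 129 in control, and Rgs19 (1370133_at) 8.91 to 141 in EAMG and 26.5 to 147 in control. Signals this low overlapped between EAMG and control in every muscle and carry no order. A further 10 genes with an Rgs symbol, counting the RGS binding protein gene Rgs7bp, had 16 probe sets on the array. Their highest signal was 264, and none was tested.

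**Figure D2:**
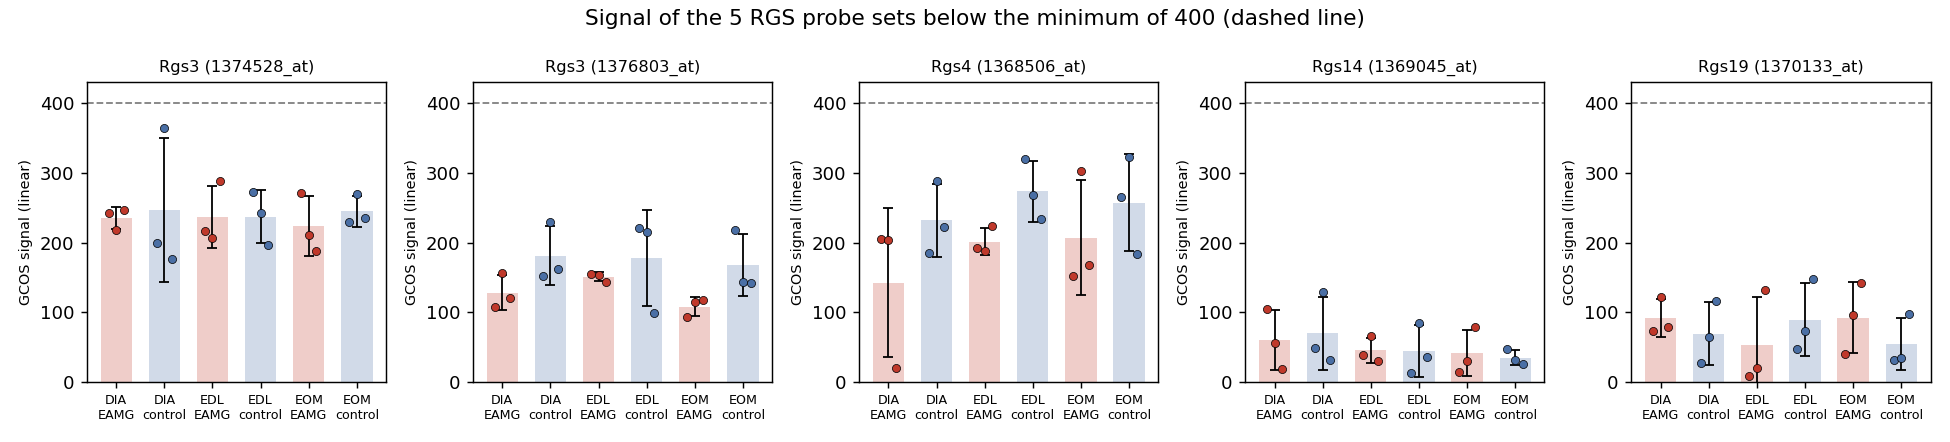
Signal on the linear scale (y axis) of the 5 RGS probe sets that stayed below 400 (dashed line) on all 18 arrays, by muscle and treatment (x axis), with means and SD (n = 3). The highest single value is 365, for Rgs3 (1374528_at) in control DIA, and Rgs14 and Rgs19 stay below 148.

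Counted together, none of the 7 tested probe sets passed in DIA, where 2.68% of all probe sets did, and 3 had an unadjusted p under 0.05 by limma. In EDL 2 passed, both lower in EAMG, against 3.22% of all probe sets that were lower. In EOM 2 passed, both lower, against 0.531%. For the average over the muscles 3 passed, all lower, against 9.93%. In each of EDL and EOM the genes were Rgs2 and Rgs4, and Rgs5 was the third for the average. The EAMG and control arrays were apart for 3 probe sets lower in EDL, where 12.4% of all were, for 2 lower in EOM, where 11.9% were, and in DIA for 2 lower and 1 higher, where 11.1% and 13.3% were. Over the 7, the median change in DIA was -0.05 (0.01 over all probe sets tested), that in EDL -0.49 (-0.0027 over all) and that in EOM -0.62 (0.00057 over all).

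**Figure D3:**
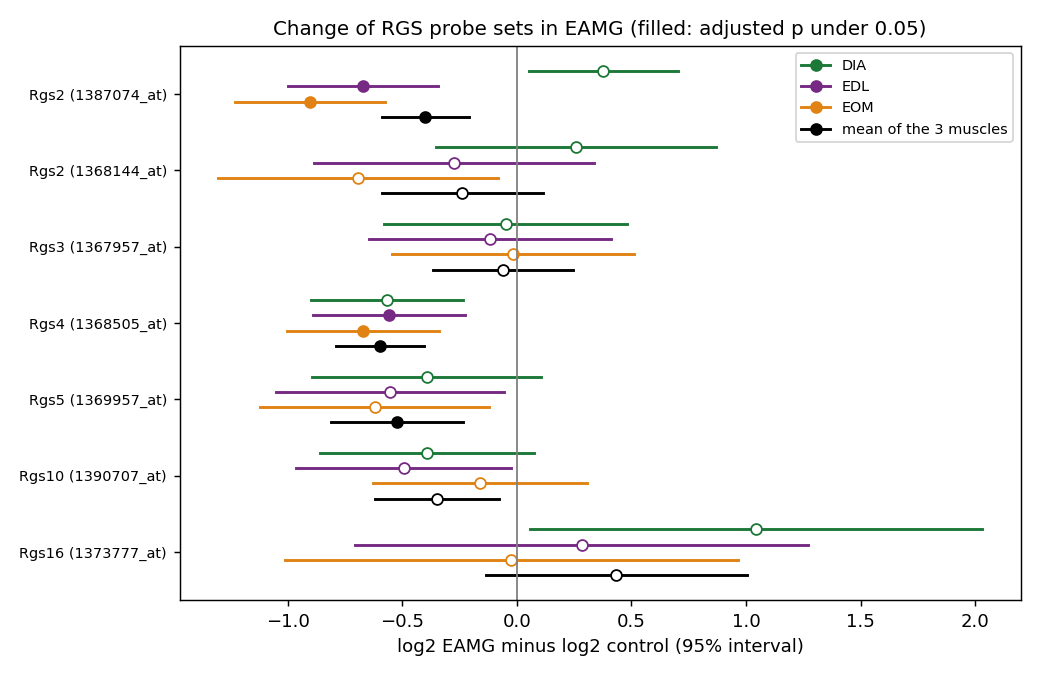
Change of each tested RGS probe set in EAMG (x axis, log2 EAMG minus log2 control, point and 95% interval) in DIA, EDL and EOM and for the mean of the 3 muscles. Filled points passed an adjusted p of 0.05. Rgs4 (1368505_at) lies between -0.56 and -0.67 in every muscle, and Rgs2 (1387074_at) lies at -0.90 in EOM and 0.38 in DIA.

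Between control muscles, Rgs2 was highest in EOM on both probe sets. Signals of 1387074_at were 2688, 2743 and 2518 in EOM, 987, 1243 and 1069 in DIA and 905, 693 and 834 in EDL. EOM stood clear of both other muscles, 3.29-fold above EDL (1.72 ± 0.15 on the log2 scale; limma, adjusted p = 7.97e-07) and 2.42-fold above DIA (1.27 ± 0.15; limma, adjusted p = 2.39e-05). DIA exceeded EDL by 0.44 ± 0.15 (limma, adjusted p = 0.0469), a call kept in 4 of 18 fits with an array left out (up to 0.176, without EDL control array 2) and lost with the replicate block (limma, adjusted p = 0.0561). On 1368144_at the control signals were 689, 1358 and 923 in EOM, 404, 332 and 496 in DIA and 125, 221 and 254 in EDL. The 3 muscles did not overlap on it, and EOM was 4.98-fold above EDL (2.32 ± 0.29; limma, adjusted p = 1.69e-05) and 2.35-fold above DIA (1.23 ± 0.29; limma, adjusted p = 0.00594). DIA was 2.12-fold above EDL on this probe set (limma, adjusted p = 0.0128). Every EDL control array lay below 400 on it, so both ratios to EDL rest on a dim signal.

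Over all 6 groups the Rgs2 signal (1387074_at) averaged 507 in EAMG EDL, 811 in control EDL, 1100 in control DIA, 1418 in EAMG EOM, 1449 in EAMG DIA and 2650 in control EOM (n = 3 each). Each group was apart from the next lower one, except EAMG DIA and EAMG EOM, which overlapped. EAMG EOM therefore read 1354 to 1459.6, within the range of 1128 to 1808 in EAMG DIA. The EOM control arrays enter both the EAMG change in EOM and the differences between control muscles, so these results are not independent.

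Rgs10 was higher in control EOM than in control EDL, with 618, 702 and 717 in EOM and 380.5, 564 and 409 in EDL, a difference of 0.61 ± 0.22 (limma, adjusted p = 0.0369). Rgs16 was also higher in control EOM, with 467, 493 and 342 in EOM and 225, 219 and 126 in EDL, a difference of 1.22 ± 0.46 (limma, adjusted p = 0.0464). For both genes the EOM arrays lay above the EDL arrays. Every EDL control array of Rgs16 lay below 400, so its difference rests on a dim signal. Neither gene passed between EOM and DIA or between DIA and EDL. With each array left out in turn, Rgs10 passed in 13 of 18 fits (limma, adjusted p up to 0.135, without EDL control array 1) and Rgs16 in 3 of 18 (up to 0.16, without EDL control array 3). Rgs3, Rgs4 and Rgs5 passed in none of the 3 comparisons of control muscles, with EOM minus EDL at 0.37 ± 0.25, 0.33 ± 0.16 and 0.28 ± 0.23.

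These counts stand beside a high background, since the muscles differ in many transcripts. In control EOM against control EDL 4 of the 7 probe sets were higher, beside 23.1% of all probe sets. In EOM against DIA 2 were higher, beside 10.6%, and in DIA against EDL 2 were higher, beside 14.1%. The control arrays were apart, with the first-named muscle higher, for 5 of 7 in EOM against EDL (31.2% of all probe sets), 4 in EOM against DIA (22.7%) and 2 in DIA against EDL (22.8%). Markers of several cell types also differed between the control muscles. Macrophage markers were higher in EOM than EDL for 12 of 13 tested, with summed signals of 8968 to 17953 in EOM and 2597 to 5334 in EDL, and in DIA than EDL for 8 of 13, with sums of 8887 to 12784 in DIA. Between EOM and DIA none of the 13 passed, with a median difference of 0.48. Schwann cell markers were higher in EOM than EDL for 7 of 7 and than DIA for 6 of 7, with sums of 18124 to 21631 in EOM, 3870 to 8613 in EDL and 6353 to 8418 in DIA. Of 12 endothelial markers tested, 6 were higher in EOM than EDL and none lower, and against DIA none was higher and 1 lower. Of 13 pericyte and vascular smooth muscle markers, 3 were higher and 3 lower in EOM than EDL, and 1 higher and 1 lower than DIA. Of 8 defining skeletal muscle markers, 5 were lower in EOM than EDL and 3 lower than DIA, and none higher. The part of all these markers in the RGS differences was not tested.

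**Figure D4:**
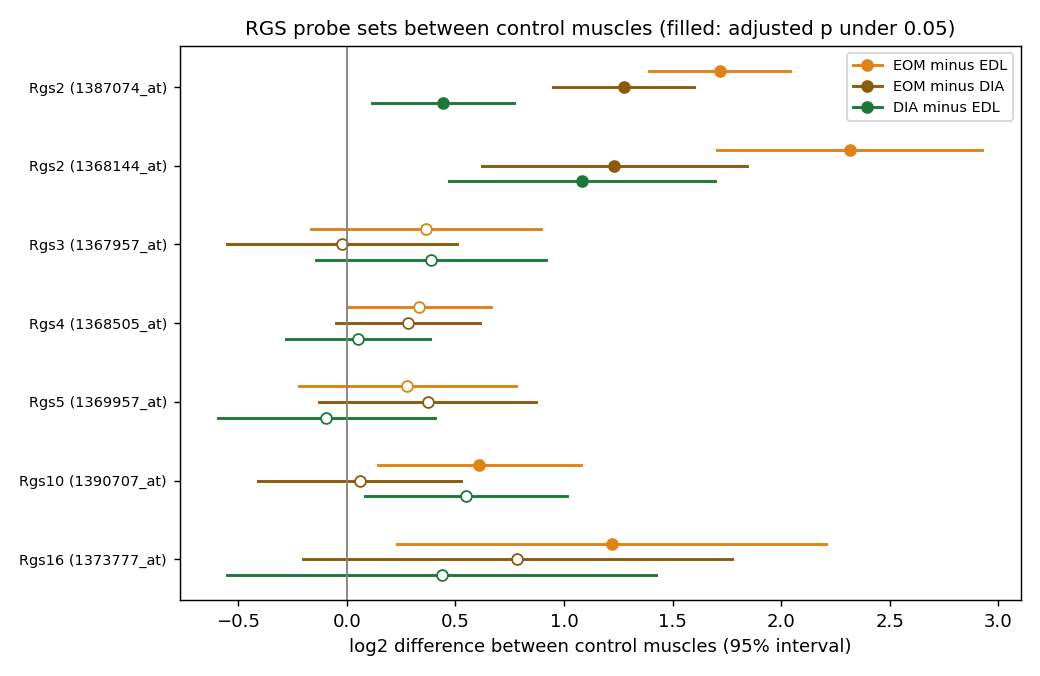
Differences between control muscles of each tested RGS probe set (x axis, log2 difference, point and 95% interval) for EOM minus EDL, EOM minus DIA and DIA minus EDL. Filled points passed an adjusted p of 0.05. Both Rgs2 probe sets lie to the right of 0 in all 3 comparisons, with EOM minus EDL at 1.72 and 2.32.

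Genes whose log2 signal followed each RGS gene most closely over the 18 arrays were looked up among 7811 other genes, as a description of likeness only. For Rgs2 (1387074_at) the closest were Col24a1, a fibrillar collagen (r = 0.949), and Mcur1, a regulator of the mitochondrial calcium uniporter (r = 0.941). Col24a1 averaged 1522 in EAMG EOM and 2853 in control EOM, 431 in EAMG EDL and 514 in control EDL, and 1004 in EAMG DIA and 937 in control DIA. For Rgs4 the closest were Ndufa2, a subunit of mitochondrial complex I (r = 0.909), and the pericyte marker Ndufa4l2 (r = 0.875). Ndufa4l2 averaged 228 in EAMG EOM and 445 in control EOM, and every EAMG array was below every control array in each muscle, as for Rgs4. For Rgs5 the closest were Lnpk (r = 0.853) and Myoz3, a protein of the muscle Z disc (r = 0.821). Rgs3 had Shank3 and Fli1, Rgs10 had Srgap2 and Col5a2, and Rgs16 had Aig1 and Resf1, with r between 0.83 and 0.92. The arrays share groups, and once the group means were taken away the r of Rgs2 was 0.62 with Col24a1 and 0.11 with Mcur1. That of Rgs4 was then 0.54 with Ndufa2 and 0.41 with Ndufa4l2, and that of Rgs5 0.76 with both of its genes. For Rgs3, Rgs10 and Rgs16 it lay between 0.72 and 0.83.

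Around the RGS genes, lists of 157 other genes of G protein signalling (alpha, beta and gamma subunits, other RGS and RGS-like proteins, other modulators, receptors, receptor kinases and arrestins, and effectors) gave 138 on the array and 54 tested. In DIA 2 were higher and 1 lower in EAMG, in EDL 4 were higher and 3 lower, and in EOM 1 was higher and none lower. That is 5.56% in DIA, 13% in EDL and 1.85% in EOM, beside 2.68%, 6.59% and 1.5% of all probe sets. Over the 54, the median change in DIA was -0.00056, that in EDL -0.20 and that in EOM 0.0086.

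Among the 4 alpha subunits tested, Gnao1, the Go subunit, a substrate of many RGS proteins, was lower in EAMG DIA, at 90.5 ± 40.6 against 195 ± 26.1 in control (SD, n = 3 each; -1.21 ± 0.29 SE on the log2 scale; limma, adjusted p = 0.0376). Both DIA means lay below the signal minimum of 400, which this gene reached only in control EOM, and the call was lost in 4 of 7 other settings and in 8 of 18 fits with an array left out (up to 0.151, without DIA EAMG array 2). No alpha subunit passed in EDL or EOM. Of 8 beta and gamma subunits, 2 were lower in EDL. Gnb5, the beta subunit that pairs with RGS proteins of another subfamily, averaged 244 ± 102 in EAMG and 397 ± 21.3 in control (-0.78 ± 0.21; limma, adjusted p = 0.039). Both EDL means of Gnb5 lay below 400. Gng11 averaged 1406 ± 205 in EAMG and 1979 ± 188 in control (-0.50 ± 0.13; limma, adjusted p = 0.0398). With an array left out Gnb5 lost its call in 9 of 18 fits (up to 0.16) and Gng11 in 7 of 18 (up to 0.162), both highest without EDL EAMG array 3. Neither gene passed in DIA or EOM alone.

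Receptors gave 14 tested genes, of which 2 passed in a single muscle, both in EDL. S1pr3, a receptor of sphingosine phosphate, averaged 199 ± 16.4 in EAMG and 348 ± 46.7 in control (-0.80 ± 0.20; limma, adjusted p = 0.0298), and lost the call in 3 of 8 other settings and in 5 of 18 fits with an array left out (up to 0.102, without EDL EAMG array 2). Both EDL means of S1pr3 lay below 400. Fzd4, a Wnt receptor, averaged 1935 ± 257 in EAMG and 1175 ± 208 in control (0.73 ± 0.16; limma, adjusted p = 0.0164), and lost the call in 2 of 18 such fits (up to 0.0723, without EDL EAMG array 2). The arrestin-domain genes, which guide the trafficking of membrane receptors, rose by more than Fzd4. Arrdc2 averaged 3640 ± 674 in EAMG DIA and 1138 ± 273 in control DIA (1.69 ± 0.30; limma, adjusted p = 0.0114), and 5805 ± 695 in EAMG EDL and 1950 ± 663 in control EDL (1.62 ± 0.30; limma, adjusted p = 0.0073). Its DIA call was lost without DIA control array 1 (limma, adjusted p = 0.059). Arrdc3 rose in EDL, by 1.51 ± 0.32 (limma, adjusted p = 0.015), and lost the call in 2 of 18 fits with an array left out (up to 0.0711, without EDL control array 1).

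Of 16 effectors tested, only Adcy2, an adenylyl cyclase that is stimulated by Gs, passed in a single muscle. It averaged 3825 ± 643 in EAMG DIA and 1880 ± 79.1 in control DIA (1.01 ± 0.14; limma, adjusted p = 0.00239), and 4146 ± 540 in EAMG EDL and 2060 ± 138 in control EDL (1.00 ± 0.14; limma, adjusted p = 0.00175). Rasd1, a small GTPase that activates Gi signalling and responds to glucocorticoids, was the one gene of these lists that passed in EOM. It averaged 848 ± 198 in EAMG EOM and 182 ± 48.5 in control EOM (2.23 ± 0.44; limma, adjusted p = 0.0177). In the other 5 groups its mean was 82.3 to 194, so it met the signal minimum only through EAMG EOM, the group in which it was then called higher. The call was lost in 5 of 18 fits with an array left out (up to 0.0964, without EOM control array 1), and the summed orbital tissue markers given above were also apart in EOM, with EAMG above. Proteins with an RGS-like domain gave 6 tested genes and no call in a single muscle, with Axin2, a brake on Wnt signalling, at -0.91 ± 0.30 in EDL (limma, adjusted p = 0.0857).

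**Figure D5:**
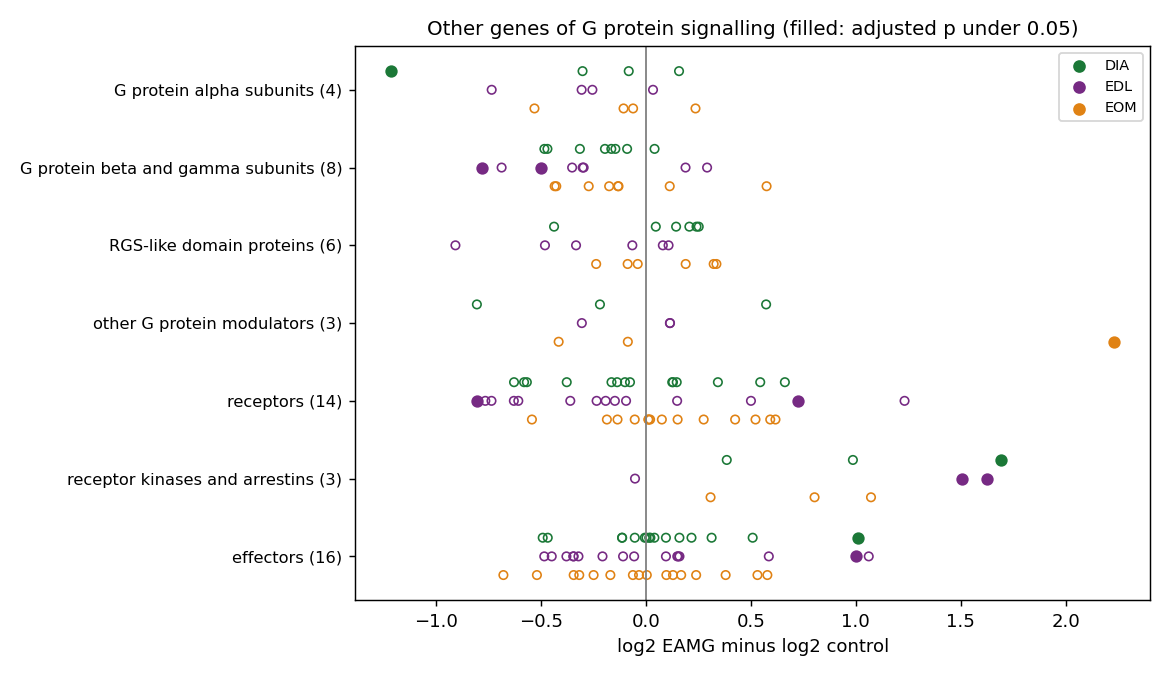
Changes in EAMG (x axis, log2 EAMG minus log2 control) of 54 other tested genes of G protein signalling, by list (y axis, number tested in brackets) and muscle. Filled points passed an adjusted p of 0.05. Rasd1 in EOM, at 2.23, and Arrdc2 in DIA and EDL, at 1.69 and 1.62, are the largest rises among those that passed, and Gnao1 in DIA, at -1.21, the largest fall.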

How the data were processed

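RNA of EOM, DIA and EDL was hybridized to rat expression arrays. The deposited values are linear signal intensities. The authors computed them in GCOS 2.0 from perfect-match and mismatch probes and scaled each array to one target. This scaling assumes similar total signal on all arrays. Signals were taken to log2 here, with no further normalization, and probe sets reaching 400 on at least 1 array, 5 times background by the methods, were tested (12238 of 31042). One mean per group was fitted to all 18 arrays (limma 3.58.1, R 4.3.3, lmFit and eBayes), with Benjamini-Hochberg adjustment over all probe sets tested and a threshold of 0.05. The steps were tested on simulated data. The study's rule rests on GCOS change calls, which were not analysed here. Probe sets were named only where the platform annotation gave 1 symbol (20826). Members and gene lists were chosen with earlier results of these data known. All probe sets of the members are given, and from each pathway list the brightest tested probe set of a gene with the largest changes among those that passed, or the largest fall or rise of a list without a call. The 2 genes closest in r to each member's brightest tested probe set are also named. Alternatives were another or no signal minimum, quantile normalization, 100 added to signals, array weights, a replicate block, muscles fitted alone and arrays left out. Figures used python 3.11.15 and matplotlib 3.10.9.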

Additional observations from a re-analysis of the deposited data

How the results depend on the processing

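The 15 calls on RGS probe sets were tried in 387 alternative fits in all. Of these, 299 kept direction and call, 88 kept direction and lost the call, and 0 reversed. The log2 change is the same under another or no signal minimum, with the replicate block and with a muscle fitted alone. Leaving out an array outside the comparison does not alter it either. In those fits only the call could change, so a reversal was not possible. The averages over the muscles of Rgs4 and of Rgs2 on 1387074_at kept their calls under all settings tried. That of Rgs5 lost it only with no signal minimum (limma, adjusted p = 0.0613). The Rgs2 average on 1387074_at, -0.40 ± 0.09, joins falls in EOM and EDL with a DIA difference of 0.38. On 1368144_at the Rgs2 average was -0.24 ± 0.17 and did not pass (limma, adjusted p = 0.33).

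In DIA the count of 0 became 1 with quantile normalization (Rgs4; limma, adjusted p = 0.0499) and was 0 to 1 with single arrays left out. In EDL the count of 2 became 0 with no signal minimum, 1 with quantile normalization, 0 with each muscle fitted alone and 1 with array weights, and was 0 to 2 with single arrays left out. In EOM the count of 2 became 0 with no signal minimum and 1 with each muscle fitted alone, and 3 with array weights, where Rgs5 joined (-0.72; limma, adjusted p = 0.0393), and was 0 to 2 with single arrays left out. The EOM call of Rgs2 was lost without control array 2 (limma, adjusted p = 0.0512), and its EDL call without control array 1 (limma, adjusted p = 0.0943) or EAMG array 2 or 3. The EOM change of Rgs2 minus its DIA change passed with 100 added to each signal (-1.21; limma, adjusted p = 0.0228) and without DIA EAMG array 1, so that this count was 0 to 1 with single arrays left out. In control EOM against control EDL the count of 4 became 2 with no signal minimum and 2 with quantile normalization, and was 2 to 4 with single arrays left out. In control DIA against control EDL the count of 2 became 0 with no signal minimum, 1 with quantile normalization and 1 without DIA EAMG array 2 and EOM EAMG array 2, whose poly-A controls were dim, and was 0 to 2 with single arrays left out. With no minimum more probe sets enter the adjustment, and with a muscle alone fewer arrays set the spread. The cause of the other losses was not tested.

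Of the 11 calls on other G protein signalling genes, 61 of 285 alternative fits lost the call and 0 reversed. The same kinds of fit could not reverse these calls. Fitting each muscle alone lost 10, no signal minimum 8, leaving out the arrays with dim poly-A controls 2, array weights 1, quantile normalization 1, and leaving out single arrays 39 of 198.

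Only changes that did not pass reversed, the largest of them that of Rgs16 in EDL (0.28 ± 0.46). Rgs10 in EOM was 0.026 without that pair of arrays, and Rgs16 in EOM was 0.0077 with array weights. Leaving out single arrays moved the log2 change of Rgs3 over -0.25 to 0.10 (DIA), -0.34 to 0.074 (EDL), -0.15 to 0.13 (EOM) and -0.13 to 0.0029 (average), that of Rgs16 over -0.31 to 0.96 (EDL) and -0.19 to 0.15 (EOM), and that of Rgs10 over -0.34 to 0.026 (EOM).

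Same-numbered EAMG and control arrays of a muscle had correlated deviations over 0.1 in 7 of 9 pairs (r from -0.03 to 0.34), in 3 of 3 for EDL and in 2 of 3 each for DIA and EOM, and 14 of 18 arrays correlated best with their own number. The methods describe repeats of the study but the sources used here do not tie the numbers to them, so whether the numbers pair the arrays is not settled, and the fit without the block is the one reported. With the replicate number as a block the count in EOM was 1 (Rgs4 lost; limma, adjusted p = 0.0549), that in control DIA against control EDL was 1 (Rgs2 lost on 1387074_at; limma, adjusted p = 0.0561), and no other count changed by more than 1.5 times. With 3 pools a group precision is limited, as in the 95% interval of 0.06 to 2.03 for Rgs16 in DIA.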
